A study of Homo sapiens with 9 samples.

Results

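DNA replication needs proteins that mark and license origins, build and run forks, supply nucleotides and restore chromatin behind the fork, and 46 such genes outside the MCM-CDC45-GINS helicase are described here. They were chosen by name from a list of replication genes by a rule that uses no value, although earlier results of these data were known when the list was made, and are set among 16402 genes named in at least 1 library, of which 12859 reached the mean level needed for a test. All 46 were tested, and none was listed at 0 in any library. RNA was sequenced after poly-A enrichment in WM3248, an established human melanoma line, 24 h after ARN22089 was added. The doses were 0, 4 and 6 µM, and each has 3 libraries. The cells at 0 µM received the vehicle DMSO and are labelled as untreated, so every group carries the same line, medium and harvest time. ARN22089 is a small molecule designed to block the binding of CDC42-family GTPases to their effectors. Whether replicate libraries stem from separate cultures is not described, and the p-values therefore reflect a spread that may be technical.

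In a proliferating cell, origins are bound by the origin recognition complex and licensed in G1, when CDC6 and CDT1 load the MCM helicase. In S phase kinases fire the licensed origins, primase and polymerase alpha start each strand, and the sliding clamp PCNA holds polymerases delta and epsilon on DNA. Many of these genes are known targets of E2F transcription factors and are transcribed mainly around the entry into S phase, which makes their RNA a common readout of proliferation in tumour cell lines.

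The deposited values were FPKM, fragments scaled to transcript length and to the mapped fragments of a library, from transcripts assembled in each library separately. As its main value, each gene received the summed FPKM of its transcripts, which depends on how much of the gene was assembled as 1 piece. Another value, called here the consensus exon value, averaged FPKM per base over a fixed set of exon bases, those present in 50% or more of the libraries with the gene assembled. All transcripts on the gene's strand counted there, including those without a name, named for another gene or without a strand. It still uses the FPKM of assembled transcripts, so it also depends on the assembly. Differences are log2 differences of FPKM + 1, which understate the change of low genes, with the SE of 1 limma fit over all 9 libraries. A gene passed at an adjusted p under 0.05 over all genes tested, and gene positions are RefSeq spans in GRCh38.

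The line was checked against its lineage. SOX10, a melanocyte lineage factor, lay between 103 and 160 FPKM in the 9 libraries. Among 6 other melanocytic markers, MITF, PMEL, TYR, DCT and S100B were above 0 in all libraries, and MLANA was listed at 0 in replicate 3 at 0 µM. Of 8 markers of other cell types, PTPRC, CD3E, PECAM1, CDH5, EPCAM, KRT5 and ALB were listed at 0 in every library, and KRT14 reached 2.27 FPKM. DCT, a pigment enzyme, was at 55.3, 141 and 77.4 FPKM at 0 µM, at 246, 281 and 258 at 4 µM, and at 218, 365 and 289 at 6 µM, so both doses lay above all libraries at 0 µM. The files give no read counts, and relative depths lay between 0.802 (replicate 3, 4 µM) and 1.34 (replicate 1, 6 µM) of the median library.

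At 6 against 0 µM the 46 genes had a median log2 difference of -0.72, where the median of all genes tested was -0.03. The difference was negative in 45 of the 46, and in 53.1% of all genes tested. Only ATAD2 passed limma's test with the summed value, against a share of 0.14% of all genes tested that passed as lower, and no member passed as higher. At an unadjusted p under 0.05, 34 members were lower, or 73.9%, against 9.32% of all genes tested. In 33 members all 3 libraries at 6 µM lay below all 3 libraries at 0 µM, which held for 13.6% of all genes tested. Under a rescaling to a fixed sum (TPM), which moved the median of all genes to 0.24, the median of the 46 stayed negative at -0.46.

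With the consensus exon value 22 of the 46 passed as lower at 6 against 0 µM, as did 2.3% of 13194 genes, and no member passed as higher. A gene that passed as lower with this value in this comparison is said here to have fallen. Genes not said to have fallen can still be lower, since the estimate was negative in 45 of the 46. The median difference of all 46 was -0.79, against -0.04 over all genes tested. All 3 libraries at 6 µM lay below all 3 at 0 µM in 37 members, against 18.3% of all genes tested. The same shares of all genes stand beside the counts given below for each step. They are 2.3% for genes that fell, and 13.6% (summed) and 18.3% (consensus exon) for libraries at 6 µM below all at 0 µM. The count of 22 rested on all 9 libraries: leaving out replicate 1, 2 or 3 at 0 µM gave 2, 1 and 1, leaving out 1 of those at 4 µM gave 2, 2 and 17, and leaving out 1 of those at 6 µM gave 0, 0 and 26. The adjusted p of the 22 members lay between 0.0248 and 0.0491 in limma. With the replicate number as a block the count was again 22, of which 18 were shared: the block added PCNA, LIG1, TIMELESS and WDHD1, and RNASEH2A, TYMS, TK1 and TIPIN did not pass with it. With the summed value no member passed in the blocked fit.

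**Figure D1:**
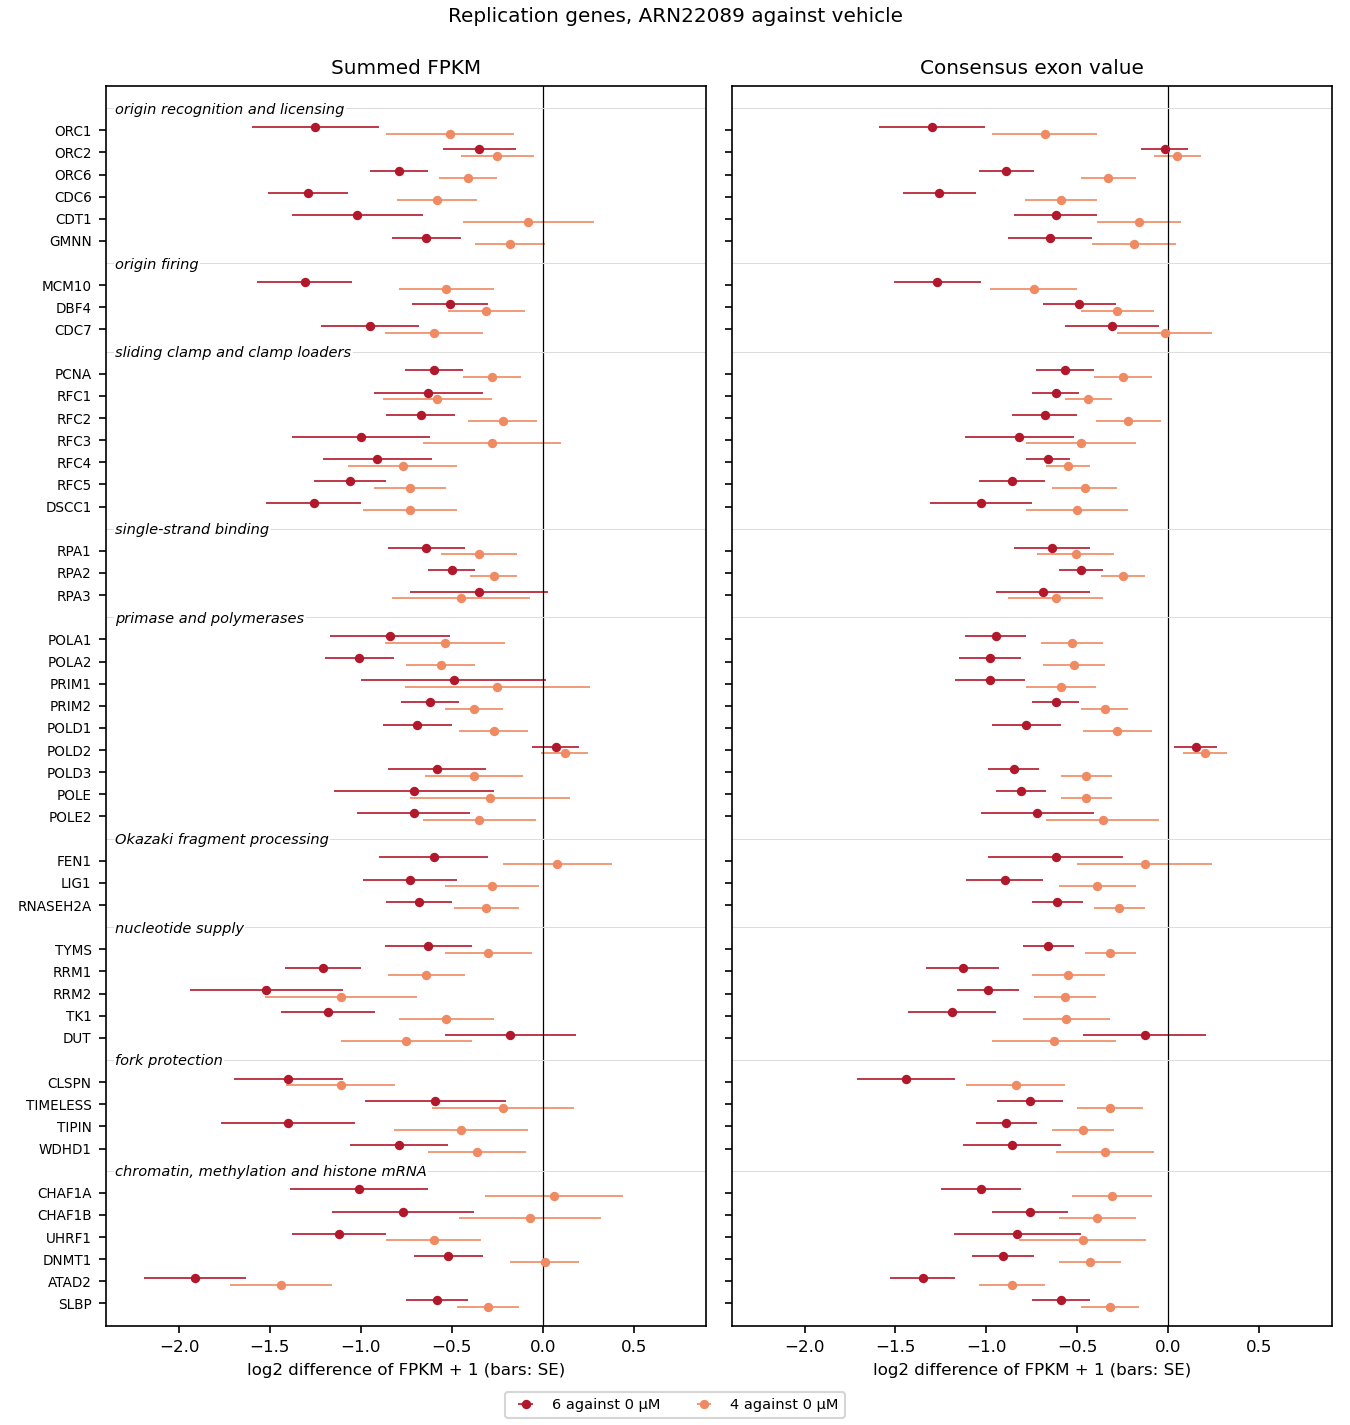
Log2 difference of FPKM + 1 (horizontal axis) for the 46 genes, grouped by step, at 6 against 0 µM and at 4 against 0 µM, with the summed value on the left and the consensus exon value on the right. Points are limma estimates from 3 libraries per dose and bars are their SE; 45 of 46 estimates at 6 µM are negative in each panel, and POLD2 is the exception.

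The smaller dose gave smaller differences. At 4 against 0 µM the median of the 46 was -0.36 by the summed value and -0.43 by the consensus exon value, against 0 and -0.01 over all genes. With TPM it was -0.04, where the median of all genes was 0.31. No member passed limma's test at 4 µM with either value, where 0.0156% and 0.0379% of all genes passed as lower, and 12 members by the summed value and 21 by the consensus exon value were lower at an unadjusted p under 0.05, against 4.5% and 6.97% of all genes tested. The libraries at 4 µM lay below all those at 0 µM in 17 members by the summed value and in 26 by the consensus exon value, against 8.18% and 10.5% of all genes tested.

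Between the 2 doses, at 6 against 4 µM, the median was -0.39 by the summed value and -0.41 by the consensus exon value. No member passed limma's test, where 0.00778% and 0.0227% of all genes passed as lower, and 12 and 19 members were lower at an unadjusted p under 0.05, against 2.96% and 3.21% of all genes tested. All libraries at 6 µM lay below all at 4 µM in 10 members by the summed value and 9 by the consensus exon value, against 7.23% and 7.96% of all genes. A linear slope over the 3 doses passed as negative for ATAD2 with the summed value, where 0.233% of all genes passed, and for 23 members with the consensus exon value, where 2.6% passed. Those 23 were the 22 of the comparison of 6 with 0 µM and ORC1. The mean stood in the order 0, 4, 6 µM from high to low in 39 members with the summed value, against 26% of all genes, and in 43 with the consensus exon value, against 32.6%. The members out of that order with the consensus exon value were ORC2, POLD2 and DUT.

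**Figure D2:**
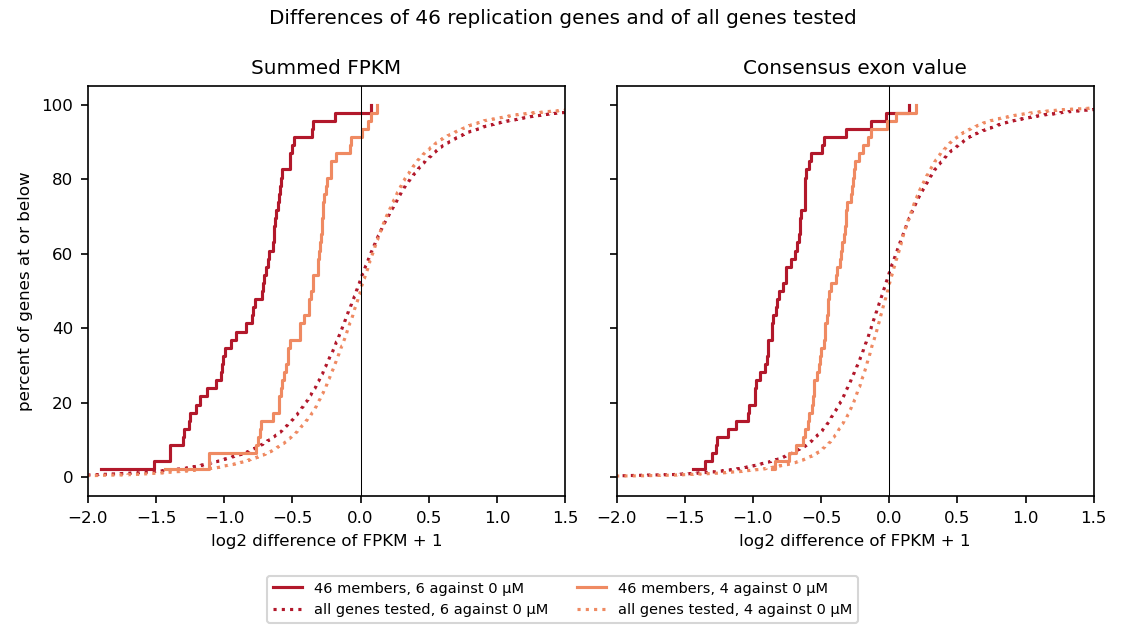
Percent of genes (vertical axis) at or below each log2 difference of FPKM + 1 (horizontal axis), for the 46 replication genes (solid) and all genes tested (dotted), at 6 and at 4 against 0 µM. The curves of the 46 lie left of those of all genes, with medians of -0.72 and -0.36 against -0.03 and 0 for the summed value.

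The upstream sequence of these genes was read for E2F words, since E2F factors are known regulators of many of them. RefSeq promoters (GRCh38.p14) were matched by symbol for 41 of the 46, all but RPA2, RPA3, POLD3, ATAD2 and DSCC1. The 250 bases before the start were searched on both strands for 4 words, TTTCGCGC, TTTGGCGC, TTTCCCGC and TTTGCCGC, none of which holds another. At least 1 was present in 9 of 41 promoters (22%), in 438 of 9875 genes tested that had a promoter (4.44%) and in 761 of all 27305 promoters (2.79%). The 9 were CDT1, PCNA, RFC3, POLA1, POLA2, POLE, LIG1, TYMS and UHRF1. The stretches shown are from the 4 of these genes that fell with the consensus exon value and from PCNA, the most abundant member, written 5′ to 3′ on the gene's strand with the word or its reverse complement in capitals.
POLA1: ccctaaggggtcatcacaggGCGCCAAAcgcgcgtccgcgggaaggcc
POLA2: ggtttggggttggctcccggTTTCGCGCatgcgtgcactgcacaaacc
POLE: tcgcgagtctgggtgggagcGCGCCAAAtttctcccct
TYMS: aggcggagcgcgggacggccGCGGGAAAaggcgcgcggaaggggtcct
PCNA: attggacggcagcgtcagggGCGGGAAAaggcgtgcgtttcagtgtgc

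These stretches lie at chrX:24693761-24693808 (plus strand) for POLA1, chr11:65261889-65261936 (plus) for POLA2, chr12:132687343-132687380 (minus) for POLE, chr18:657594-657641 (plus) for TYMS and chr20:5126654-5126701 (minus) for PCNA. The words end 129, 45, 10, 31 and 51 bases before the start in that order of genes. The 9 members with a word had a median log2 difference at 6 against 0 µM of -0.84 with the summed value, and the matched members without one a median of -0.70; with the consensus exon value the medians were -0.82 and -0.76. CCAAT, a word known from cell cycle promoters, was present on either strand in 21 of the 41 (51.2%), against 35.8% of genes tested. TTTGAA, a word of the CHR element, was present in 1 (2.44%), against 8.36%. A match describes these letters and no binding, and a promoter without a match holds no exact copy of these words in this window.

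Of the 6 genes of origin recognition and licensing, ORC6 and CDC6 fell at 6 µM with the consensus exon value, and none passed with the summed value. ORC1 (chromosome 1, 52372829 to 52409503) encodes the largest ATPase subunit of the origin recognition complex. Its summed value stood at 12.4, 6.48 and 5.33 FPKM at 0 µM, at 3.33, 7.07 and 5.2 at 4 µM, and at 1.79, 2.66 and 3.58 at 6 µM. All libraries at 6 µM lay below those at 0 µM, while those at 4 µM overlapped them. The log2 difference at 6 against 0 µM was -1.25 ± 0.35 (limma adjusted p = 0.13), and -1.30 ± 0.29 with the consensus exon value (limma adjusted p = 0.0516).

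CDC6 (chromosome 17, 40287879 to 40304657), the ATPase that loads the helicase together with CDT1, was at 35, 33.5 and 22.4 FPKM at 0 µM, at 19, 23.6 and 16.5 at 4 µM, and at 9.33, 12.5 and 13.1 at 6 µM. It had 1 transcript in every library, of uneven length, and the libraries at 6 µM lay below all others. The transcript had 4111 to 4782 bases in replicate 3 of every dose and replicate 1 at 6 µM, against 2720 to 2886 elsewhere. The lowest library of each dose held the longer form, as did the highest at 6 µM. The part of this length in either value was not tested. The difference at 6 against 0 µM was -1.29 ± 0.22 (limma adjusted p = 0.0585), and -1.26 ± 0.20 with the consensus exon value (limma adjusted p = 0.0293), which passed in 4 of 9 fits that left out 1 library. ORC2 (chromosome 2, 200908977 to 200963660), a core subunit of the origin recognition complex, had the smallest difference of the step. It was at 16.9, 9.43 and 10.9 FPKM at 0 µM, at 9.65, 9.77 and 10.5 at 4 µM, and at 8.83, 8.56 and 10.3 at 6 µM, so replicate 1 at 0 µM stood apart. In that library the consensus exon value was 7.9 FPKM, and the difference of -0.35 ± 0.20 with the summed value was -0.02 ± 0.13 with the consensus exon value and turned to 0.03 when that value was also rescaled by median ratios. ORC6, CDT1, which is the other loader, and GMNN, which binds and inhibits CDT1, had summed differences of -0.79, -1.02 and -0.64. All 3 had libraries at 6 µM below all those at 0 µM. CDT1 was at 20.4 FPKM in replicate 1 at 0 µM by the summed value and at 8.15 by the consensus exon value. With the latter its difference was -0.62 ± 0.23 (limma adjusted p = 0.155).

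Of the 3 origin firing genes MCM10 fell with the consensus exon value. MCM10 (chromosome 10, 13161558 to 13211110), a factor that helps the loaded helicase to start unwinding, was at 10.6, 13.2 and 11.8 FPKM at 0 µM, at 10, 5.85 and 8.29 at 4 µM, and at 3.07, 3.68 and 6.34 at 6 µM. Libraries of either dose lay below all those at 0 µM, and replicate 3 was the highest library at 6 µM. At 6 against 0 µM it differed by -1.31 ± 0.26 (limma adjusted p = 0.07), and with the consensus exon value by -1.27 ± 0.24 (limma adjusted p = 0.0381). CDC7 and DBF4 encode the kinase that phosphorylates the helicase at licensed origins and its activating subunit. CDC7 (chromosome 1, 91500851 to 91525764) stood at 7.66, 15.9 and 8.19 FPKM at 0 µM, at 5.29, 6.43 and 7.22 at 4 µM, and at 4.03, 4.57 and 5.61 at 6 µM. Its difference at 6 against 0 µM was -0.95 ± 0.27 by the summed value and -0.31 ± 0.26 by the consensus exon value (limma adjusted p = 0.134 and 0.492). All libraries at 6 µM lay below those at 0 µM with the summed value, and they overlapped with the consensus exon value. DBF4 (chromosome 7, 87876493 to 87909553) stood at 18.1, 18 and 20.6 FPKM at 0 µM, at 13.3, 12.3 and 20.4 at 4 µM, and at 12.3, 11 and 15.9 at 6 µM, with replicate 3 the highest at each dose and no overlap between 6 and 0 µM. Its difference was -0.51 ± 0.21 (limma adjusted p = 0.267) and -0.49 ± 0.20 with the consensus exon value.

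The sliding clamp PCNA (chromosome 20, 5114953 to 5126622) was the most abundant of the 46. It was at 275, 250 and 288 FPKM at 0 µM, at 211, 212 and 246 at 4 µM, and at 182, 146 and 211 at 6 µM. The 3 doses did not overlap, although the highest library at 6 µM and the lowest at 4 µM round to the same 211 FPKM. The mean at 6 µM was 66.3% of that at 0 µM, a difference of -0.60 ± 0.16 (limma adjusted p = 0.117) and of -0.57 ± 0.16 with the consensus exon value (limma adjusted p = 0.0827, and 0.0499 with the replicate block). Among the clamp loaders, which open PCNA and set it on primed DNA, RFC1, RFC4 and RFC5 fell with the consensus exon value. RFC5 (chromosome 12, 118016703 to 118041448), a small subunit, was at 25.7, 36.8 and 35.6 FPKM at 0 µM, at 15.7, 18.6 and 23.7 at 4 µM, and at 14.4, 13.5 and 17.2 at 6 µM. Both doses lay below all libraries at 0 µM, and they overlapped each other. Its difference at 6 against 0 µM was -1.06 ± 0.20 by the summed value (limma adjusted p = 0.0662) and -0.86 ± 0.18 by the consensus exon value (limma adjusted p = 0.0415).

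DSCC1 (chromosome 8, 119833976 to 119855894), a subunit of the alternative loader that works in sister chromatid cohesion, was at 17.6, 15.4 and 11.3 FPKM at 0 µM, at 7.4, 7.59 and 10.3 at 4 µM, and at 5.57, 3.78 and 7.68 at 6 µM. Both doses lay below 0 µM and overlapped each other. Its difference of -1.26 ± 0.26 at 6 against 0 µM was the furthest from 0 of the step and did not pass (limma adjusted p = 0.0715, and 0.0765 with the consensus exon value). RFC1, RFC2, RFC3 and RFC4 had differences between -1.0 and -0.63, with overlapping libraries for RFC1 and RFC3.

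The 3 subunits of RPA, the trimer that coats single-stranded DNA at the fork, did not pass with either value. RPA1 (chromosome 17, 1830005 to 1900082), the large DNA-binding subunit, was at 69.1, 57.7 and 40.7 FPKM at 0 µM, at 39.3, 42.5 and 46.3 at 4 µM, and at 34.5, 30 and 40.6 at 6 µM. RPA2 (chromosome 1, 27891524 to 27914797), the subunit phosphorylated under replication stress, was at 55.5, 49.5 and 56.3 FPKM at 0 µM, at 39.9, 45.4 and 47.7 at 4 µM, and at 36.4, 35 and 41.9 at 6 µM. At 6 µM both genes lay below all libraries at 0 µM, RPA1 narrowly, at 40.6 against 40.7 FPKM, with differences of -0.64 ± 0.21 and -0.50 ± 0.13 (limma adjusted p = 0.182 and 0.117). In replicate 3 at 0 µM, the library at 40.7 FPKM, the RPA1 transcript had 4048 bases, against 1927 to 2729 in the other libraries. RPA3 (chromosome 7, 7636518 to 7718607), the smallest subunit, was at 40.2, 19.8 and 22.5 FPKM at 0 µM, at 15.5, 16.9 and 25.8 at 4 µM, and at 13.6, 18 and 34 at 6 µM. Its doses overlapped, and the difference at 6 against 0 µM was -0.35 ± 0.38 by the summed value (limma adjusted p = 0.666) and -0.69 ± 0.26 by the consensus exon value (limma adjusted p = 0.159).

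Of the 9 primase and polymerase genes, 6 fell at 6 µM with the consensus exon value: POLA1, POLA2, PRIM1, PRIM2, POLD3 and POLE. POLA1 (chromosome X, 24693918 to 24996986), the catalytic subunit of polymerase alpha, which extends primers, was at 13.4, 28.5 and 18.4 FPKM at 0 µM, at 8.42, 13.7 and 18.2 at 4 µM, and at 12.6, 10.4 and 8.28 at 6 µM. With the consensus exon value the same libraries were at 13.3, 14.2 and 15.1 FPKM at 0 µM, at 8.42, 8.34 and 12.2 at 4 µM, and at 6.77, 5.83 and 8.21 at 6 µM. The 3 doses overlapped in part with the summed value and were fully apart with the consensus exon value. Against 0 µM, the difference at 6 µM was -0.84 ± 0.33 with the first (limma adjusted p = 0.252) and -0.95 ± 0.17 with the second (limma adjusted p = 0.0336).

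POLA2 (chromosome 11, 65261962 to 65305985), the regulatory subunit of polymerase alpha, had 1 transcript in every library. It was at 23.1, 21.4 and 20.3 FPKM at 0 µM, at 12.3, 14.6 and 16.4 at 4 µM, and at 8.48, 9.23 and 13.4 at 6 µM. Both doses lay below all libraries at 0 µM, and the difference at 6 against 0 µM was -1.01 ± 0.19 (limma adjusted p = 0.0655), and -0.98 ± 0.17 with the consensus exon value (limma adjusted p = 0.0346). The mean at 6 µM was 48% of the mean at 0 µM. POLD2 (chromosome 7, 44114680 to 44124325), an accessory subunit of polymerase delta, which copies the lagging strand, was the member with a positive difference at 6 against 0 µM. It was at 60.7, 57.2 and 69.4 FPKM at 0 µM, at 68.7, 68.9 and 65.6 at 4 µM, and at 69.8, 58.7 and 68.7 at 6 µM. The doses overlapped, with a difference of 0.07 ± 0.13 at 6 against 0 µM (limma adjusted p = 0.801). POLD1 and POLD3, the catalytic and another accessory subunit of the same polymerase, had differences of -0.69 ± 0.19 and -0.58 ± 0.27. PRIM1 and PRIM2, the primase subunits, and POLE and POLE2, of the leading-strand polymerase epsilon, had differences between -0.71 and -0.49, and of these PRIM2 alone had libraries at 6 µM below all those at 0 µM with the summed value.

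Of the 3 genes of Okazaki fragment processing RNASEH2A fell with the consensus exon value. RNASEH2A (chromosome 19, 12806584 to 12813640), the catalytic subunit of RNase H2, which removes ribonucleotides from DNA, was at 61.5, 53.6 and 72 FPKM at 0 µM, at 42.4, 52.7 and 54.6 at 4 µM, and at 34.8, 34.7 and 46.4 at 6 µM. Its libraries at 6 µM lay below all those at 0 µM, and the difference was -0.68 ± 0.18 (limma adjusted p = 0.117), or -0.61 ± 0.14 with the consensus exon value (limma adjusted p = 0.0491, and 0.0512 with the replicate block). LIG1 (chromosome 19, 48115445 to 48170344), the ligase that joins the fragments, was at 13.3, 15.1 and 16.7 FPKM at 0 µM, at 10.3, 9.63 and 17.9 at 4 µM, and at 9.5, 6.33 and 10.7 at 6 µM. The libraries at 6 µM lay below those at 0 µM, and replicate 3 at 4 µM lay above them all. Its difference at 6 against 0 µM was -0.73 ± 0.26 (limma adjusted p = 0.217), or -0.90 ± 0.21 with the consensus exon value (limma adjusted p = 0.0564, and 0.0246 with the block). FEN1 (chromosome 11, 61792911 to 61797238), the flap endonuclease that trims displaced ends, was at 88.8, 67.6 and 37.9 FPKM at 0 µM, at 60.2, 53.1 and 84.6 at 4 µM, and at 38.9, 38.6 and 42.8 at 6 µM. Replicate 3 at 0 µM lay below all libraries at 6 µM, while replicates 1 and 2 lay above them, and the difference was -0.60 ± 0.30 (limma adjusted p = 0.346). In replicate 3 at 0 µM the FEN1 transcript had 4702 bases, against 1426 to 3403 in the other libraries. The consensus exon value there was 37.2 FPKM, and the part of the length was not tested.

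Of the 5 nucleotide supply genes, whose median difference at 6 against 0 µM was -1.18, TYMS, RRM1, RRM2 and TK1 fell with the consensus exon value. RRM1 (chromosome 11, 4094685 to 4138932) encodes the large subunit of ribonucleotide reductase, which turns ribonucleotides into deoxyribonucleotides. It was at 63.5, 65.1 and 70.8 FPKM at 0 µM, at 34, 41.7 and 52.6 at 4 µM, and at 23.7, 25.5 and 37 at 6 µM. Both doses lay below 0 µM without overlap, replicate 3 was the highest at each dose, and the mean at 6 µM was 43.2% of that at 0 µM. The log2 difference for 6 over 0 µM was -1.21 ± 0.21 (limma adjusted p = 0.0603), and -1.13 ± 0.20 with the consensus exon value (limma adjusted p = 0.036).

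RRM2 (chromosome 2, 10122568 to 10211010), the small subunit of the same enzyme, had 1 library whose summed value stood far above the others. It was at 145, 43.8 and 47.1 FPKM at 0 µM, at 28.1, 27.4 and 36.8 at 4 µM, and at 21, 19.7 and 28.6 at 6 µM. In replicate 1 at 0 µM its transcript was 1134 bases long, against 3328 to 3771 in the other libraries, and the consensus exon value there was 46.8 FPKM, close to the 43.1 and 47.1 of the other libraries at 0 µM. The difference at 6 against 0 µM was -1.52 ± 0.42 by the summed value (limma adjusted p = 0.128) and -0.99 ± 0.17 by the consensus exon value (limma adjusted p = 0.0331), which put both doses below 0 µM without overlap. TK1, which salvages thymidine, and TYMS, which makes thymidylate, had summed differences of -1.18 ± 0.26 and -0.63 ± 0.24. DUT (chromosome 15, 48331095 to 48343373), the enzyme that removes dUTP, was at 105, 107 and 99.6 FPKM at 0 µM, at 30.6, 87.2 and 85.5 at 4 µM, and at 80.9, 86.8 and 108 at 6 µM. Replicate 1 at 4 µM stood apart as the lowest, and was at 21.4 FPKM with the consensus exon value. In that library the longest DUT transcript had 2114 bases, against 520 to 949 in the other libraries. The part of this length in both values was not tested. At 6 against 0 µM DUT differed by -0.18 ± 0.36 (limma adjusted p = 0.829), with overlapping libraries. The difference turned to 0.11 under TPM, where the median of all genes was 0.24.

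**Figure D3:**
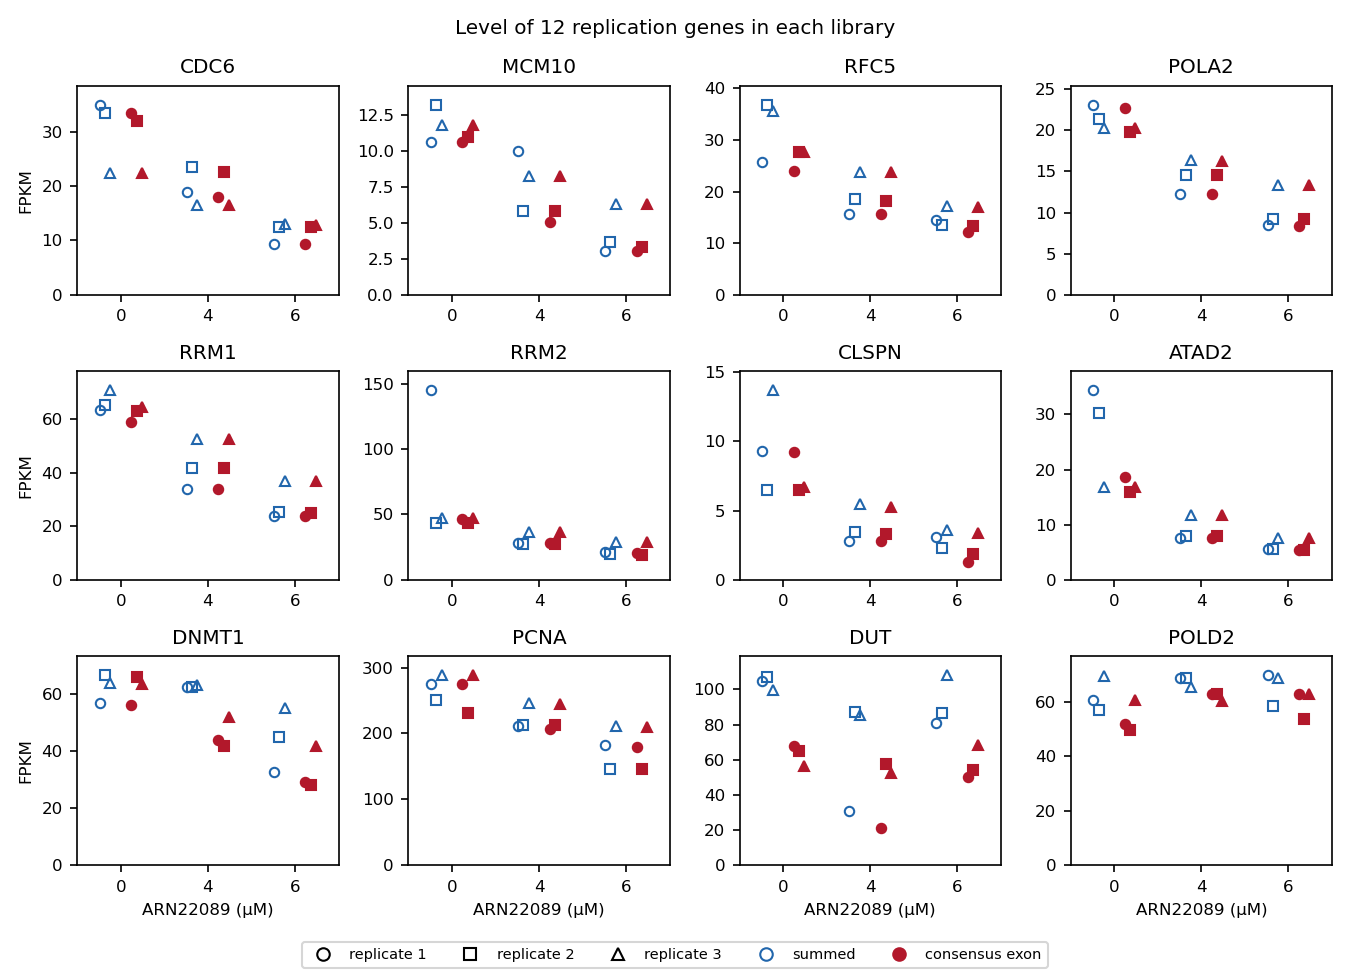
Level in FPKM (vertical axis, linear, from 0) of 12 replication genes in each of the 9 libraries by ARN22089 dose (horizontal axis), with open symbols for the summed value, filled symbols for the consensus exon value and 1 symbol shape per replicate. RRM2 shows the single summed value of 145 FPKM at 0 µM beside a consensus exon value of 46.8, and POLD2 and DUT show doses that overlap.

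Fork protection factors keep stalled or slowed forks intact, and of the 4 genes CLSPN and TIPIN fell with the consensus exon value. CLSPN (chromosome 1, 35720213 to 35769978), the adaptor through which ATR activates the checkpoint kinase CHEK1, was at 9.28, 6.46 and 13.7 FPKM at 0 µM, at 2.83, 3.48 and 5.51 at 4 µM, and at 3.1, 2.28 and 3.59 at 6 µM. Both doses lay below all libraries at 0 µM, and they overlapped each other. Against 0 µM, the difference at 6 µM was -1.40 ± 0.30 (limma adjusted p = 0.0773), and with the consensus exon value -1.44 ± 0.27 (limma adjusted p = 0.0378). TIPIN and TIMELESS form a complex that travels with the fork. TIPIN (chromosome 15, 66336191 to 66386717) stood at 11.5, 7.66 and 19.4 FPKM at 0 µM, at 9.16, 12.3 and 5.46 at 4 µM, and at 4.2, 2.86 and 5.01 at 6 µM, the 6 µM libraries lying below all others. Its difference at 6 against 0 µM was -1.40 ± 0.37 by the summed value (limma adjusted p = 0.117) and -0.89 ± 0.17 by the consensus exon value (limma adjusted p = 0.0378, and 0.0501 with the block). TIMELESS (chromosome 12, 56416363 to 56449426) stood at 19.3, 28.7 and 30.2 FPKM at 0 µM, at 22.5, 15.7 and 29.6 at 4 µM, and at 29.8, 9.96 and 15.2 at 6 µM, with overlap between all doses. In replicate 1 at 6 µM its longest transcript had 2891 bases, against 4191 to 4432 in the other libraries, and the consensus exon value there was 11 FPKM. Its difference was -0.59 ± 0.39 by the summed value (limma adjusted p = 0.469) and -0.76 ± 0.18 by the consensus exon value (limma adjusted p = 0.0597, and 0.0292 with the block). WDHD1, which links polymerase alpha to the helicase, had a difference of -0.79 ± 0.27.

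ATAD2 (chromosome 8, 123319850 to 123416350), a bromodomain ATPase that binds acetylated histones on newly replicated chromatin, was the 1 member to pass with both values. It was at 34.4, 30.3 and 16.8 FPKM at 0 µM, at 7.63, 7.98 and 11.8 at 4 µM, and at 5.61, 5.52 and 7.68 at 6 µM. Both doses lay below all libraries at 0 µM, and the highest library at 6 µM stood just above the lowest at 4 µM. Its mean was 27.2 ± 9.25 FPKM at 0 µM, 9.13 ± 2.31 at 4 µM and 6.27 ± 1.22 at 6 µM (SD, n = 3 each). By this summed value 23.1% of the level at 0 µM was left at 6 µM, and 36% by the consensus exon value. In replicates 1 and 2 at 0 µM its longest transcript had 4244 and 4386 bases, against 5277 to 5705 in the other libraries. The log2 difference for 6 over 0 µM was -1.91 ± 0.28 (limma adjusted p = 0.0466). By the consensus exon value it stood at 18.6, 16 and 16.8 FPKM at 0 µM, at 7.62, 7.98 and 11.7 at 4 µM, and at 5.36, 5.5 and 7.63 at 6 µM, a difference of -1.35 ± 0.18 (limma adjusted p = 0.0248). Over 17 settings of the summed value the adjusted p ran from 0.019 to 0.171, and leaving out any library but replicate 3 at 0 µM ended the call. With the consensus exon value it passed in 6 of 9 fits that left out 1 library, with adjusted p up to 0.0921.

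The other 5 genes of chromatin, methylation and histone mRNA also had libraries at 6 µM below all those at 0 µM with the summed value. That held for 13.6% of all genes tested. UHRF1 (chromosome 19, 4903080 to 4962154), which recognises hemimethylated DNA behind the fork and brings in DNMT1, was at 38.6, 36.8 and 45.7 FPKM at 0 µM, at 20.3, 25.6 and 34.4 at 4 µM, and at 14.5, 15.2 and 25.8 at 6 µM. The difference at 6 against 0 µM was -1.12 ± 0.26 by the summed value (limma adjusted p = 0.0893) and -0.83 ± 0.35 by the consensus exon value (limma adjusted p = 0.194), where replicate 3 at 0 µM, at 23.3 FPKM, overlapped the treated libraries. DNMT1 (chromosome 19, 10133346 to 10194953), the methyltransferase that copies DNA methylation, was at 56.8, 66.5 and 63.9 FPKM at 0 µM, at 62.4, 62.4 and 63.1 at 4 µM, and at 32.6, 44.9 and 54.9 at 6 µM. At 4 µM it stood within the range of 0 µM with the summed value, while the consensus exon value put it at 43.8, 41.9 and 52 FPKM at 4 µM, below the 56.3, 66 and 63.4 at 0 µM. At 6 against 0 µM it differed by -0.52 ± 0.19 (limma adjusted p = 0.216), and DNMT1 fell with the consensus exon value, by -0.91 ± 0.17 (limma adjusted p = 0.0373). CHAF1A and CHAF1B, subunits of the histone chaperone CAF-1, had summed differences of -1.01 ± 0.38 and -0.77 ± 0.39, and CHAF1A fell with the consensus exon value. In replicate 3 at 4 µM both stood at their highest summed value, 44.6 and 10.3 FPKM, against consensus exon values of 19.9 and 4.55. SLBP, which binds the stem-loop of histone mRNA, had a difference of -0.58 ± 0.17.

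The libraries of a dose did not stand level. Over the 46 genes, replicate 3 held the highest library of its dose for 35 genes at 4 µM and 36 at 6 µM with the summed value, and for 38 and 44 with the consensus exon value, and for 18 at 0 µM with each. Between libraries of the same number, the median difference at 6 against 0 µM was -0.92, -0.98 and -0.54 for replicates 1, 2 and 3 with the summed value, and at 4 against 0 µM it was -0.64, -0.43 and -0.14. At 6 against 4 µM the same medians were -0.30, -0.53 and -0.33. The submitters' sample descriptions give libraries of 1 number a tag in common that looks like a date. Within replicates 1, 2 and 3 the summed difference at 6 against 0 µM was negative in 43, 45 and 43 of the 46 genes. The share of all genes was not counted within replicates, so these counts have no background beside them. Across the members and libraries, 51 of 414 summed values were at least 1.5 times the consensus exon value, 20 at 0 µM, 16 at 4 µM and 15 at 6 µM, and their part in the summed differences was not tested. In RNA from whole cultures, fewer cells in S phase and less RNA of these genes per cell cannot be told apart.

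**Figure D4:**
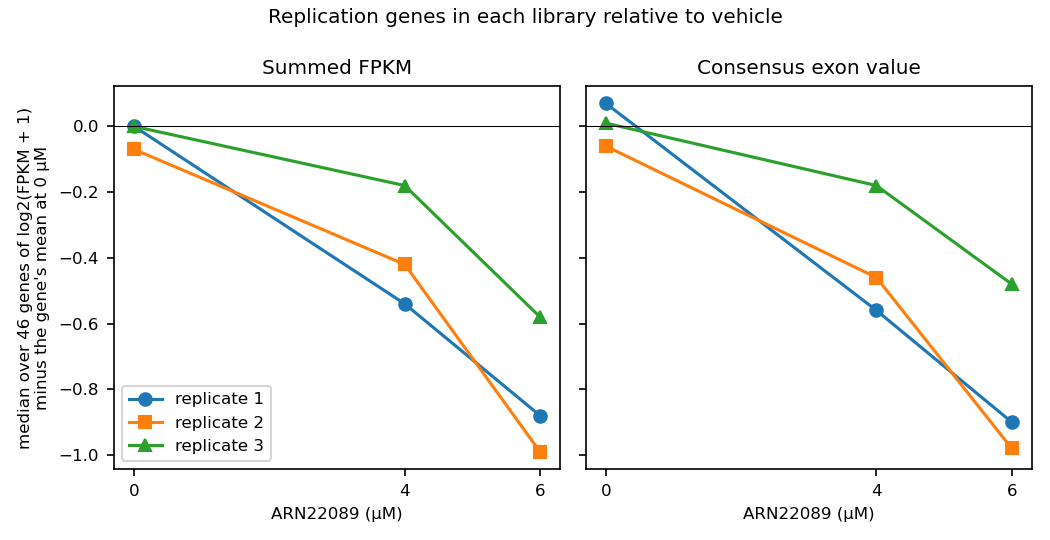
Median over the 46 genes of log2(FPKM + 1) in a library minus the gene's mean at 0 µM (vertical axis), by ARN22089 dose (horizontal axis), with a line joining the libraries of each replicate number. With the summed value replicate 3 stands at -0.18 at 4 µM and -0.58 at 6 µM, above replicates 1 and 2, which reach -0.88 and -0.99 at 6 µM.

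Replication genes outside the 46 were counted by the same fits. The 11 helicase genes MCM2 to MCM7, CDC45 and GINS1 to GINS4 had a median difference of -1.06 at 6 against 0 µM with the summed value, beside -0.72 for the 46, and whether the sets differ was not tested. At 6 against 0 µM none of the 11 passed limma's test with the summed value, where 0.14% of all genes tested passed as lower. At an unadjusted p under 0.05, 10 of the 11 were lower, against 9.32% of all genes tested. With the consensus exon value 7 fell, against 2.3% of all genes tested. For the slope over the doses 1 of the 11, MCM5, passed with the summed value (limma adjusted p = 0.0494), where 0.233% of all genes tested passed as lower. A wider list of 35 replication genes, among them checkpoint genes, topoisomerases and histone chaperones, had a median of -0.51 at 6 against 0 µM. In that comparison none passed with the summed value, and 14 were lower at an unadjusted p under 0.05, against 9.32% of all genes tested. The 7 that fell with the consensus exon value, against 2.3% of all genes tested, were DNA2, RECQL4, TOPBP1, TOP2A, CHEK1, DTL and SKP2. TOP2A, the topoisomerase that untangles replicated chromosomes, was at 76.9, 87 and 80.5 FPKM at 0 µM, at 38.9, 36.7 and 55.1 at 4 µM, and at 30.6, 24.9 and 37.7 at 6 µM by the consensus exon value. That is a difference of -1.38 ± 0.19 at 6 against 0 µM (limma adjusted p = 0.0263), with both doses below 0 µM and overlapping each other.

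A wider list of nucleotide synthesis genes had a median closer to that of all genes tested. Of 34 listed, 33 were tested, with a median difference of -0.25 at 6 against 0 µM, beside -1.18 for the 5 nucleotide supply genes among the 46. The summed difference was negative in 28 of the 33, against 53.1% of all genes tested. At an unadjusted p under 0.05 in limma, 10 were lower, against 9.32% of all genes tested, and 1 was higher. In that comparison none of the 33 passed with the summed value, and SAMHD1 and PFAS were among those that fell with the consensus exon value. SAMHD1, which breaks down deoxyribonucleotides, had a difference of -1.14 ± 0.22 by that value (limma adjusted p = 0.0392). No gene of either wider list passed as higher with either value.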

How the data were processed

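The submitters' processing notes list Cufflinks 2.2.1, TopHat2 2.1, Bowtie2 2.2.7, Trimmomatic, R 4.0.3 and SAMtools 1.9, with no roles. The deposited files are Cufflinks transcript assemblies, 1 per library, without gene names, and the FPKM of each transcript was taken from their attribute column, which is text; no other deposited value, such as the coverage and confidence bounds the authors' files also hold, was tested. No source used here says whether strand was kept, so overlapping and antisense genes are uncertain.

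The notes name GRCh37, but 188566 of 193769 spliced transcripts (97.3%) shared an intron with GENCODE at its GRCh38 position and 1468 (0.76%) at its GRCh37 position, so transcripts were named by introns in GRCh38. Named transcripts held 92.75% to 96.26% of FPKM times length in a library. Single-exon transcripts counted if 50% or more of their length fell in a single gene with no spliced assembly. Python 3.11.15, pandas 2.3.3, R 4.3.3 and limma 3.58.1 were used, with log2(FPKM + 1), a minimum mean of 1 FPKM, a variance prior following the mean, 6 residual degrees of freedom and Benjamini-Hochberg adjustment over 12859 genes (13194 for the consensus exon value).

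Named in full were members that passed with the summed value, the 2 largest and the smallest difference of each step at 6 against 0 µM, and members with a 0. Members and lists were chosen with earlier results of these data known. Same-numbered libraries share a tag in the labels and were taken as pairs in the block. Their deviations from the dose mean correlated at 0.092 to 0.119 between 4 and 6 µM. Between 0 µM and either dose the correlations were -0.017 to 0.052. For libraries of different numbers and doses they ran from -0.095 to 0.017. Alternatives were the block, a pseudocount of 0.1, no filter, a minimum of 5 FPKM, TPM, median-ratio scaling, the consensus exon value, 2 doses only and leaving out each library. FPKM carry no read counts, so no counting interval can be given. 1 result of the nucleotide synthesis list is not reported here.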

Additional observations from a re-analysis of the deposited data

How the results depend on the processing

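With the summed value 1 member passed at 6 against 0 µM. The count was 0 with the replicate block, 0 with TPM, 0 with only the 2 doses compared, 3 with a minimum of 5 FPKM, 22 with the consensus exon value, 22 with that value and the block as a pair, 22 with that value and median-ratio scaling, and 0 to 3 without 1 library. For the dose slope, passed by 1 member, the counts were 0 with the block, 0 with TPM, 5 with a minimum of 5 FPKM, 23 with the consensus exon value, 23 with the block added, 23 with median-ratio scaling added, and 0 to 5 without 1 library. No member passed at 4 against 0 µM or at 6 against 4 µM in any setting run. Fits that pair the consensus exon value with the block or a scaling were chosen after the data were seen.

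The median of the 46 at 6 against 0 µM was -0.46 with TPM and between -0.79 and -0.69 in the other settings that kept all libraries. At 4 against 0 µM it was -0.04 with TPM, where the median of all genes was 0.31. TPM divides by the FPKM sum of a library, which was 1.061e+06 in replicate 3 at 0 µM and 5.88e+05 to 6.897e+05 in the others. The median of the 46 at 6 against 4 µM ran from -0.53 to -0.26 without 1 library. Of the single genes named, DUT reversed to 0.11 with TPM, where the median of all genes was 0.24. ORC2 reversed to 0.03 with the consensus exon value and median-ratio scaling. Of the other results for single genes, 462 kept their direction and side of the threshold. Another 38 passed only in the alternative and 11 only in the fit reported above. The cause was not tested.

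Depth in reads is unknown, 3 libraries per dose limit the precision, and replicate 3 stood nearest to 0 µM at both doses. Without replicate 3 at 6 µM the consensus exon value gave 26 members, and without replicate 1 or 2 at 6 µM it gave 0.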
